A study of Mus musculus with 8 samples.

Results

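Aminoacyl-tRNA synthetases are the enzymes that join each amino acid to its transfer RNA, the charging step that feeds the ribosome. The 36 genes followed here were listed by name, 20 for enzymes of the cytosol and 16 for enzymes of the mitochondrion. The list was made with earlier results of these data known. Each gene was represented by its brightest probe on the array. Probes for all 36 were found under their older symbols (Aars for the gene now called Aars1), and 35 were bright enough to be tested among 18003 genes in all. The mitochondrial asparaginyl-tRNA synthetase gene Nars2 was well above background on 0 of 8 arrays in either channel and was not tested.

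Cytoplasmic RNA of mouse bone marrow macrophages had been measured on 8 dual-colour arrays, 2 in each of 4 groups. The groups were Thoc5 (flox/flox) ERT2 Cre cells with tamoxifen, the same cells without it, ERT2 Cre control cells with tamoxifen, and control cells without it. Each array set RNA of day 3 under the macrophage growth factor CSF-1 against RNA of day 0 of the same genotype, which had received no tamoxifen. All groups had the mixed C57BL/6 x B6:129 Ola background and carried ERT2 Cre, a recombinase that tamoxifen activates, so the controls carry the enzyme too. Thoc5 encodes a subunit of the THO complex, which takes part in messenger RNA export. The 2 replicates of a group come from separate biological experiments with opposite dyes, and the 2 arrays of a genotype and experiment share their day 0 RNA. P-values therefore rest on 2 experiments. The fit takes out the shift between experiments that all groups share. Standard errors and p-values of the day 3 changes leave that shift out and use the remaining spread pooled over all 8 arrays. With the shift left in, the genes called at day 3 in flox cells with tamoxifen went from 10602 to 8576.

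Most of these enzymes have separate nuclear genes for the cytosolic form and for the mitochondrial form, whose symbols end in 2. Gars and Kars are known to serve both compartments, Eprs joins the activities for glutamate and proline in 1 chain, and Farsa and Farsb encode the 2 kinds of subunit of 1 enzyme. Several cytosolic enzymes (those of Eprs, Iars, Lars, Qars, Mars, Kars, Rars and Dars) sit together in the multisynthetase complex. Many cytosolic synthetase genes are known targets of ATF4, the transcription factor of the amino acid and stress response, which binds a C/EBP-ATF element.

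The letters of that element, TGATGNAA on either strand, stood in the 250 bases before the start of 3 of the 13 cytosolic genes with a RefSeq promoter (GRCm38.p6) and of 0 of 14 mitochondrial genes. All 3 match on the strand opposite to the gene. The same window holds them in 3.45% of 32851 promoters. The other motif searched, the E-box CACGTG, was searched on its own and stood in 3 of 13 cytosolic promoters (Aars, Farsb and Iars), 0 of 14 mitochondrial promoters and 6.02% of all. A match is a description of letters and not of binding. The windows of the 3 genes with the ATF4 letters are shown because they include Tars and Aars, the cytosolic genes with the largest mean falls over the 4 groups at day 3. Capitals mark the matched letters, which begin 112 bases before the start in Aars (chr8:111033704-111033763, plus strand), 30 bases before it in Gars (chr6:55037941-55038000, plus strand) and 15 bases before it in Tars (chr15:11399659-11399718, minus strand).
Aars: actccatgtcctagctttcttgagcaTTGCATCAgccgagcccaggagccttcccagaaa
Gars: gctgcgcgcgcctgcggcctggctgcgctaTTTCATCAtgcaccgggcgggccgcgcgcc
Tars: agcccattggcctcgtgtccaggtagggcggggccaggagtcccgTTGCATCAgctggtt

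A second set of sequences matters for reading the array, since the probes of these genes lie in different parts of their transcripts. The 60-base probes of Dars (chr1:130310284-130311944, mm9, minus strand) and Rars (chr11:35633429-35634605, minus strand) have design coordinates wider than the probe, so they lie over an exon junction; they are shown because these genes rose at day 3. Farsa has 1 such probe (chr8:87391534-87391694, plus strand) and a brighter one at the 3′ end (chr8:87393097-87393156). Of this 3′ probe, 30 bases around the AATAAA letters of a polyadenylation signal, in capitals, are shown. The brighter Wars probe (chr12:110098245-110098304, minus strand) also holds this signal, whereas its other probe (chr12:110104366-110104425) lies 6.12 kb upstream.
Dars: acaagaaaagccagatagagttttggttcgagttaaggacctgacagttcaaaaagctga
Rars: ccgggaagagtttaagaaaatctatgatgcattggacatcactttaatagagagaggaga
Farsa, junction probe: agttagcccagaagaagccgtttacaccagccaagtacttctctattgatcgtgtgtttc
Farsa, 3′ probe: gccagctgttttAATAAAgtgggcacattc
Wars, 3′ probe: ttaggaaaaaacAATAAActttgttgagct
Wars, upstream probe: agtgcctcatcccgtgtgccattgaccagg

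The targeted gene matched the labels. The log2 ratio of day 3 over day 0 of Thoc5 was -3.04 and -3.02 in flox cells with tamoxifen, -0.74 and -0.77 in flox cells without it, -0.21 and -0.15 in control cells with tamoxifen, and -0.40 and -0.28 in control cells without it. The share of probes well above background ranged over 51.2% to 57.9% by channel, and replicate arrays correlated at 0.78 to 0.93 over genes, lowest in control cells without tamoxifen. Of the 7 macrophage marker genes tested, the day 3 level of 5 was raised and of 2 reduced in flox cells with tamoxifen, of 4 raised and 1 reduced without it, and of 5 raised and 0 reduced in each control group. Their median log2 changes were 0.98, 0.69, 0.71 and 0.51 in that order of groups. C1qb, a complement gene of macrophages, rose by 1.60 ± 0.10 (SE) in flox cells with tamoxifen. The 7 neutrophil markers, which mark granulocytes and their precursors, had medians of -3.75, -3.74, -3.47 and -3.48, and erythroid markers were tested in 0 of 3 cases. In bulk samples of this kind, fewer cells of a type and less RNA per cell cannot be told apart.

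At day 3, most cytosolic synthetase genes were lower than at day 0 in every group. Of the 20 genes, 15 were lower and 3 higher in flox cells with tamoxifen, and 12 lower and 3 higher in flox cells without it (limma, Benjamini-Hochberg adjusted p under 0.05 over all genes). In control cells, 15 were lower and 2 higher with tamoxifen, and 14 lower and 2 higher without it. Among all genes tested the shares called lower were 33.4%, 33.4%, 33.8% and 34.1%, and the shares called higher 25.5%, 23.8%, 23.9% and 23.3%. The median log2 change of the 20 genes was -0.58, -0.43, -0.54 and -0.62, against -0.05, -0.05, -0.05 and -0.06 over all genes. The 12 genes lower in all 4 groups were Aars, Cars, Eprs, Gars, Iars, Kars, Lars, Mars, Sars, Tars, Vars and Wars.

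Mitochondrial synthetase genes were lower less uniformly. Of the 15 tested, 7 were lower and 3 higher in flox cells with tamoxifen, 6 lower and 2 higher in flox cells without it, 8 lower and 2 higher in control cells with tamoxifen, and 9 lower and 2 higher in control cells without it. Their medians were -0.18, -0.13, -0.24 and -0.35. The cytosolic minus the mitochondrial median was -0.41 and -0.30 in flox cells (tamoxifen, then none) and -0.30 and -0.27 in control cells. On single arrays the cytosolic median ran from -0.70 to -0.37 and the mitochondrial one from -0.42 to -0.08, and the cytosolic median was the lower on all 8 arrays. All members together were called in 28, 23, 27 and 27 of 35 cases, against 58.9%, 57.2%, 57.7% and 57.3% of all genes. In each group the count fell on leaving out some single arrays, and the count over all genes fell on leaving out either array of the group.

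**Figure D1:**
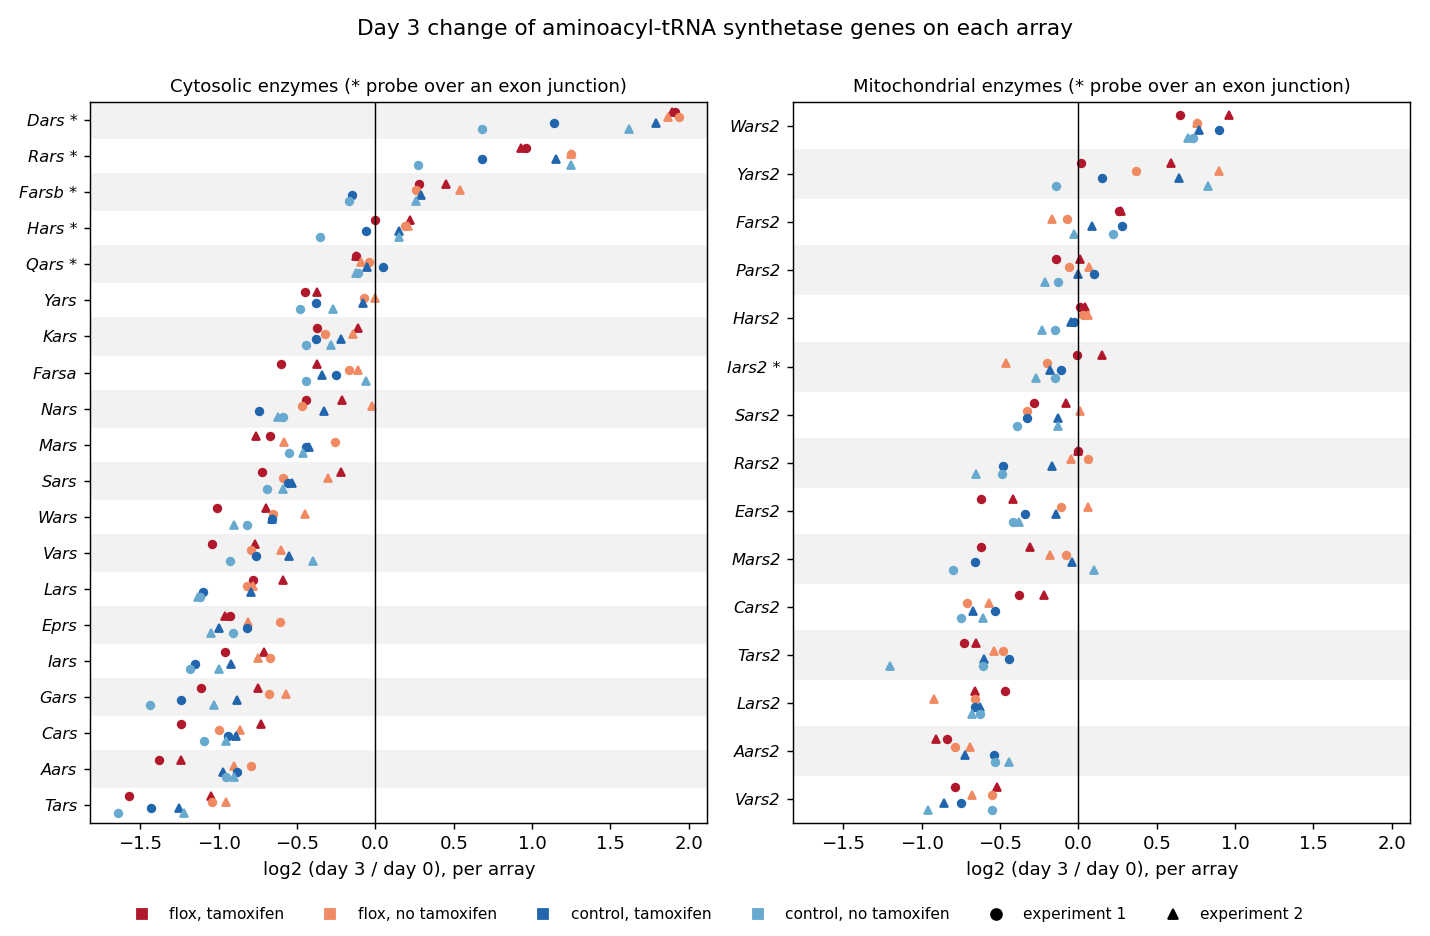
Log2 ratio of day 3 over day 0 on each of the 8 arrays for the 35 tested members, ordered by their mean; colours give the group, circles experiment 1 and triangles experiment 2. The 5 cytosolic genes measured over an exon junction (marked *) are the 5 at the top, and the other 15 cytosolic genes lie at or below 0 on all arrays.

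Averaged over the 4 groups, Tars and Aars had the largest falls. Tars, for threonyl-tRNA synthetase, had log2 ratios of -1.57 and -1.05 in flox cells with tamoxifen and -1.04 and -0.95 in flox cells without it. In control cells they were -1.43 and -1.25 with tamoxifen and -1.64 and -1.22 without it. The fitted changes were -1.31, -0.99, -1.34 and -1.43 ± 0.09 (SE, 2 arrays each), 2.47-fold lower in the first group, with limma adjusted p-values of 0.000104, 0.000299, 0.000119 and 8.96e-05. The groups overlap, and the highest of the 8 arrays, at -0.95, is one of flox cells without tamoxifen.

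Aars, for alanyl-tRNA synthetase, stood at -1.38 and -1.24 in flox cells with tamoxifen and -0.79 and -0.90 in flox cells without it. Control cells gave -0.88 and -0.97 with tamoxifen and -0.95 and -0.90 without it. The 2 arrays of flox cells with tamoxifen are the lowest of the 8, and those of the other 3 groups overlap. The day 3 change was 2.48-fold lower in flox cells with tamoxifen (limma adjusted p = 5.65e-05).

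The other cytosolic genes called lower in all 4 groups were Cars, Eprs, Gars, Iars, Lars, Vars and Wars, with group changes between -1.24 and -0.55, Mars and Sars between -0.72 and -0.42, and Kars between -0.36 and -0.23. They charge the transfer RNAs of cysteine, of glutamate and proline, and of glycine, isoleucine, leucine, valine and tryptophan, then of methionine, serine and lysine. Gars was the brightest member, with a mean log2 intensity of 15.20. Nars, for asparagine, and Yars, for tyrosine, were called lower in 3 groups, with changes of -0.25 and -0.04 in flox cells without tamoxifen. Farsa, for a phenylalanine subunit, was called lower in both groups with tamoxifen.

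Dars, for aspartyl-tRNA synthetase, and Rars, for arginyl-tRNA synthetase, were higher at day 3 in all 4 groups. Dars had log2 ratios of 1.91 and 1.89 in flox cells with tamoxifen and 1.94 and 1.87 in flox cells without it. In control cells it had 1.14 and 1.79 with tamoxifen and 0.68 and 1.62 without it. Its fitted rise was 3.72-fold in flox cells with tamoxifen (1.90 ± 0.18, limma adjusted p = 0.000291) and 2.22-fold in control cells without it (1.15 ± 0.18, adjusted p = 0.00232). All flox arrays lie above all control arrays.

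Rars stood at 0.96 and 0.93 in flox cells with tamoxifen and at 1.25 on both arrays of flox cells without it. Control cells had 0.68 and 1.15 with tamoxifen and 0.27 and 1.25 without it. The fitted changes were 0.94, 1.25, 0.91 and 0.76 ± 0.18, with limma adjusted p-values of 0.00393, 0.00132, 0.00481 and 0.0103. For Dars and Rars the array of control cells without tamoxifen from experiment 1 was the lowest of the 8. Farsb, for the other phenylalanine subunit, was higher in flox cells with tamoxifen (0.36 ± 0.08, adjusted p = 0.00771) and without it (0.40 ± 0.08, adjusted p = 0.00572), and stood at 0.07 and 0.04 in the controls. Hars, for histidine, and Qars, for glutamine, were called in 0 groups.

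Among mitochondrial genes, Aars2, Cars2, Lars2, Tars2 and Vars2 were lower in all 4 groups. Vars2, for valine, had log2 ratios of -0.79 and -0.52 in flox cells with tamoxifen and -0.55 and -0.68 in flox cells without it. Control arrays gave -0.75 and -0.86 with tamoxifen and -0.55 and -0.96 without it. Aars2, for alanine, had -0.84 and -0.91 in flox cells with tamoxifen, -0.79 and -0.69 in flox cells without it, -0.54 and -0.72 in control cells with tamoxifen, and -0.53 and -0.44 in control cells without it. For Aars2 the arrays of flox cells with tamoxifen lie below all others, while the groups of Vars2 overlap. Lars2, for leucine, stood at -0.47 and -0.66, -0.66 and -0.92, -0.66 and -0.63, and -0.63 and -0.68 in the same order of groups, also overlapping.

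Wars2, for mitochondrial tryptophanyl-tRNA synthetase, and Yars2, for the tyrosine enzyme, were higher in all 4 groups. Wars2 had log2 ratios of 0.65 and 0.96 in flox cells with tamoxifen, 0.76 on both arrays of flox cells without it, 0.90 and 0.77 in control cells with tamoxifen, and 0.73 and 0.70 in control cells without it. The groups overlap, and the fitted changes lay between 0.72 and 0.84 ± 0.09 (limma adjusted p between 0.000515 and 0.000981). Yars2 rose by 0.30, 0.64, 0.40 and 0.34 ± 0.10 in the 4 groups, an error that leaves out the shift between experiments. Its arrays stood at 0.02, 0.37, 0.15 and -0.14 in experiment 1. In experiment 2, with the opposite dyes, they stood at 0.59, 0.90, 0.64 and 0.83. The rise was thus larger in experiment 2 in every group, and the experiment 1 array of control cells without tamoxifen was below 0. Ears2, Rars2 and Sars2, for glutamate, arginine and serine, were called lower in 3, 2 and 2 groups. Mars2, Hars2 and Iars2, for methionine, histidine and isoleucine, were called lower in 1 group each, and Fars2, for phenylalanine, was called higher in 1. Pars2, for proline, was called in 0 groups.

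Among cytosolic genes the day 3 direction went with where the probe lay, a measure chosen after seeing the data. All 15 cytosolic genes measured within 1 exon were called lower in flox cells with tamoxifen and in control cells with tamoxifen, as were 12 of 15 in flox cells without it and 14 of 15 in control cells without it, and 0 were called higher. The 5 cytosolic genes measured over an exon junction (Dars, Rars, Farsb, Hars and Qars) had 0 lower calls in every group, and 3, 3, 2 and 2 higher calls. Their medians were 0.36, 0.40, 0.07 and 0.04, against -0.83, -0.63, -0.66 and -0.86 for the other 15. Only 1 mitochondrial gene was measured over a junction, so whether that class divides this way cannot be seen. Of the 14 measured within 1 exon, 3, 2, 2 and 2 were called higher, and Iars2, the 1 over a junction, stood at 0.07, -0.33, -0.15 and -0.21 and was called lower in flox cells without tamoxifen. Among all probes kept, the 1046 over a junction had array medians of 0.14 to 0.32, against -0.05 to -0.03 for the 21248 within an exon.

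Within a gene, 5′ probes gave higher ratios than 3′ probes. Over 1888 genes with 2 kept probes at least 1000 bases apart, the upstream minus the downstream log2 ratio had a median of 0.28 to 0.53 on each array. The lowest was again control cells without tamoxifen in experiment 1, and the upstream probe was the higher in 69.3% to 81.8% of genes. Over the 1508 genes with both probes well above background on all arrays in both channels, the median was 0.30 to 0.57. Of the 8 members with 2 kept probes, 2 had a probe near background. The upstream Pars2 probe was well above background on 0 of 8 day 0 arrays and the downstream Wars2 probe on 3 of 8 day 3 arrays, so their ratios there are not exact and how they passed the filter sets their direction. In the other 6 genes the upstream probe was the higher in all 4 groups, and the signs were opposite in 4, 5, 5 and 4 of 6.

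The clearest case was Wars, where the upstream probe had mean changes of 0.94 and 1.07 in flox cells (tamoxifen, then none) and 0.79 and 0.52 in control cells. Its 3′ probe, the one used, had -0.86 and -0.55 in flox cells and -0.66 and -0.86 in control cells. Farsa had 0.51, 0.81, 0.71 and 0.63 at its junction probe, against -0.48, -0.14, -0.30 and -0.25 at its 3′ probe. For Wars, Farsa and Cars2 in 4 groups, and for Tars2 and Iars2 in 3, the day 3 direction given above thus holds only for the probe used. With the 3′-most probe of each gene, 23 members were lower and 5 higher in flox cells with tamoxifen, and with the 5′-most probe, 18 lower and 11 higher. Over all genes these choices called 10549 and 10771, with median log2 changes of -0.062 and -0.003. The all-gene calls were not split by direction there, so the shift cannot be read as particular to the members. The part of probe position in the day 3 changes was not tested, and with 27 members measured by 1 probe it cannot be taken out.

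**Figure D2:**
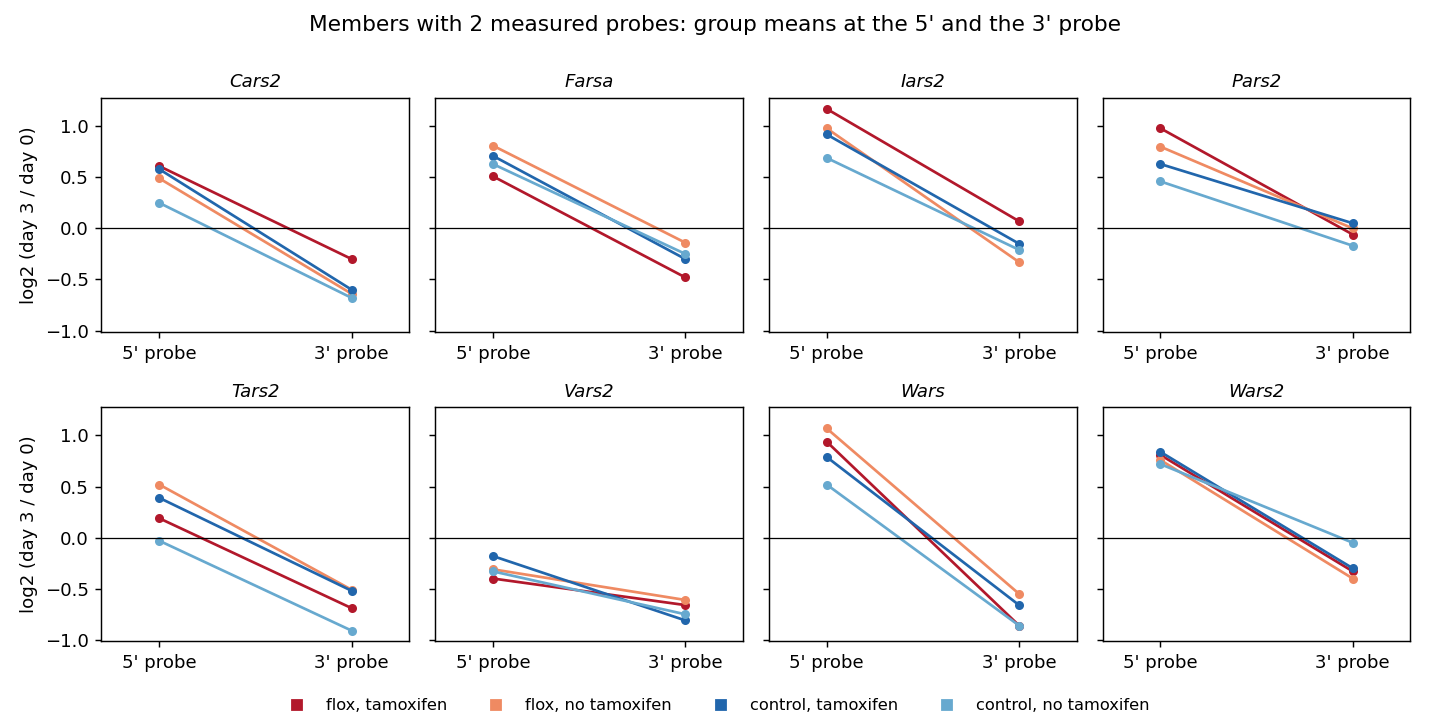
Mean log2 ratio of day 3 over day 0 (2 arrays a group) at the 5′ and the 3′ probe of the 8 members with 2 kept probes, with 1 line per group. Every line falls towards the 3′ probe, and it crosses 0 in all 4 groups for Cars2, Farsa and Wars; the 5′ probe of Pars2 at day 0 and the 3′ probe of Wars2 at day 3 lay near background.

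**Figure D3:**
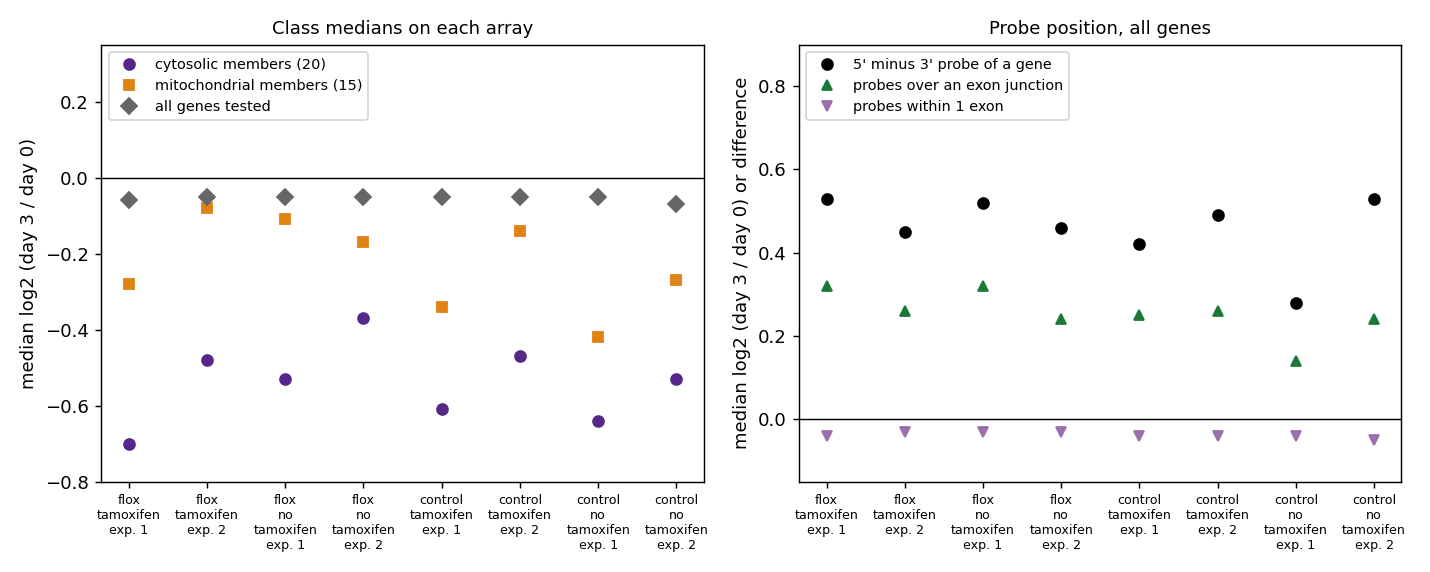
The left panel gives the median log2 ratio of day 3 over day 0 on each array for cytosolic members, mitochondrial members and all genes; the right panel gives, over all genes, the median 5′ minus 3′ difference within a gene and the medians of probes over a junction and within an exon. The cytosolic median is the lowest of the 3 on every array, and the 5′ minus 3′ difference is above 0 on every array.

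Genes known as ATF4 targets were compared with the rest of the cytosolic set. The 12 reported targets among the synthetases were all lower in flox cells with tamoxifen, control cells with tamoxifen and control cells without it, and 10 of 12 were lower in flox cells without it. Their medians were -0.85, -0.67, -0.91 and -0.95 in the order used above. The 8 others had 3 lower and 3 higher calls in flox cells with tamoxifen and a median of 0.00. All 5 junction probes belong to these 8, and the 3 measured within an exon, Farsa, Kars and Vars, were lower in flox cells with tamoxifen too. The split by ATF4 and the split by probe thus differ only for these 3 genes, and the part of either in the day 3 changes was not tested.

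Other ATF4 and amino acid response genes were more often lower than higher. Of 30 such genes, 22 were lower and 2 higher in flox cells with tamoxifen, 19 lower and 4 higher without it, 22 lower and 3 higher in control cells with tamoxifen, and 22 lower and 2 higher without it. In flox cells with tamoxifen Psat1 and Phgdh, enzymes of serine synthesis, fell by 1.98 ± 0.12 and 1.60 ± 0.11, and Slc7a5, a transporter of large amino acids, fell by 2.15 ± 0.14 (limma adjusted p of 8.94e-05 or less). Xpot, the exporter of transfer RNA, fell by 1.18 ± 0.08. Vldlr, a lipoprotein receptor gene of the same list, was higher in control cells with tamoxifen (1.91 ± 0.10). Atf4 itself stood at -1.08 and -0.58 in flox cells with tamoxifen, -0.83 and -0.71 without it, and -1.26 and -1.04 in control cells with tamoxifen, against -1.39 and -1.27 without it.

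Other parts of the translation apparatus were mixed at day 3. Of 20 genes for transfer RNA processing, editing and export, 8 were lower and 6 higher in flox cells with tamoxifen, with a median of -0.16. Of 27 mitochondrial translation genes tested, 9 were lower and 6 higher, with a median of -0.03. Of 8 cytosolic elongation and termination genes, 3 were lower and 1 higher. Over all genes 33.4% were lower and 25.5% higher in this group, so the transfer RNA and mitochondrial translation counts lie near that background. The complex scaffold gene Aimp2 was lower (-0.67 ± 0.10, adjusted p = 0.00132), while Aimp1 and Eef1e1 stood at 0.07 and 0.19. All 20 genes of G2 and mitosis were lower in that group, with a median of -1.30. Their part in the result was not tested.

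In flox cells the day 3 change with tamoxifen minus that without it was called for 2 of 35 members, both lower, against 9.02% of all genes (4.16% lower and 4.87% higher), a share near that background. Aars differed by -0.46 ± 0.11 (95% interval -0.73 to -0.20, limma adjusted p = 0.0490), and by -0.59 and -0.34 in the 2 experiments. Ears2, for mitochondrial glutamyl-tRNA synthetase, differed by -0.50 ± 0.10 (-0.74 to -0.26, adjusted p = 0.0321). Every change of processing or of arrays that lost either call also called fewer of all genes. Both calls lie near the threshold. They were lost without the term for the experiment (adjusted p = 0.106 for Aars and 0.123 for Ears2), with median centring (0.281 and 0.370), and on leaving out any of 6 arrays, those of both flox groups and of control cells with tamoxifen.

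Ears2 had log2 ratios of -0.62 and -0.42 in flox cells with tamoxifen and -0.11 and 0.06 in flox cells without it. Control cells gave -0.34 and -0.14 with tamoxifen and -0.42 and -0.38 without it. The 2 flox groups do not overlap, and the array of lowest value is a flox array with tamoxifen. In control cells the tamoxifen effect on Ears2 was 0.16 ± 0.10. The difference between the genotypes was -0.66 ± 0.14 (95% interval -0.99 to -0.32), which did not pass over all genes (adjusted p = 0.0923) and did when arrays with a common day 0 sample were treated as a random block (0.039).

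Of the members that did not pass, Fars2, Yars, Iars2, Cars2 and Gars had the smallest p-values, in that order. Yars had log2 ratios of -0.45 and -0.37 in flox cells with tamoxifen, -0.07 and 0.00 without it, and -0.38 and -0.08 in control cells with tamoxifen, against -0.48 and -0.27 without it (tamoxifen in flox cells -0.38 ± 0.11, adjusted p = 0.0818). Gars had -1.11 and -0.75 in flox cells with tamoxifen, -0.68 and -0.57 without it, and -1.24 and -0.88 in control cells with tamoxifen, against -1.44 and -1.03 without it (-0.30 ± 0.11, adjusted p = 0.161). Both genes were lower on each flox array with tamoxifen than on either flox array without it. Since they were named for small p-values in this comparison, that adds nothing to those p-values.

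Fars2, Iars2 and Cars2 had effects of the opposite sign. Fars2 had 0.26 and 0.27 in flox cells with tamoxifen, -0.07 and -0.17 without it, and 0.28 and 0.09 in control cells with tamoxifen, against 0.22 and -0.03 without it (tamoxifen in flox cells 0.38 ± 0.11, adjusted p = 0.0767). Iars2 had -0.01 and 0.15 in flox cells with tamoxifen, -0.20 and -0.46 without it, and -0.11 and -0.18 in control cells with tamoxifen, against -0.15 and -0.27 without it (0.40 ± 0.12, adjusted p = 0.104). Cars2, for mitochondrial cysteinyl-tRNA synthetase, had -0.38 and -0.22 in flox cells with tamoxifen, -0.71 and -0.57 without it, and -0.53 and -0.67 in control cells with tamoxifen, against -0.75 and -0.61 without it (0.34 ± 0.12, adjusted p = 0.125). The flox groups do not overlap for any of these genes, which were also named for small p-values in this comparison, so the separation adds nothing to those p-values.

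The cytosolic genes leaned to lower values with tamoxifen in flox cells as a class. Their median effect was -0.16, against -0.02 for mitochondrial genes and -0.01 for all genes, and 19 of 20 were below 0, Lars alone being above (0.11 ± 0.12). By experiment, 17 of 20 were below 0 in experiment 1 (median -0.27) and 13 of 20 in experiment 2 (median -0.12), and 8 of the 20 differed in sign between them. In control cells the cytosolic median was 0.09, the mitochondrial 0.08 and that of all genes 0.01, and 18 of 20 cytosolic genes were above 0. There 0 members were called, as were 0 of 18000 genes, with 0 members and 995 genes at an unadjusted p under 0.05 in limma. The difference between the genotypes was below 0 for 20 of 20 cytosolic genes and 9 of 15 mitochondrial ones, with medians of -0.26 and -0.08 against -0.01 over all genes. Other lists leaned likewise in this difference. The 20 genes of G2 and mitosis were all below 0 (median -0.83, 7 called), as were 25 of 27 mitochondrial translation genes (-0.20), 25 of 30 ATF4 and amino acid response genes (-0.42), 19 of 23 MYC and ribosome biogenesis genes (-0.38) and 16 of 20 transfer RNA genes (-0.33). The synthetase difference was called for 0 of 35 members, against 1.14% of genes (0.594% lower and 0.544% higher). An unadjusted p under 0.05 in limma was found for 6 of 35 members and 2769 of 18000 genes, which are similar shares. For the synthetases the difference between the genotypes was larger in experiment 1, with cytosolic medians of -0.45 and -0.13 in experiments 1 and 2 and 18 and 16 of 20 genes below 0.

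**Figure D4:**
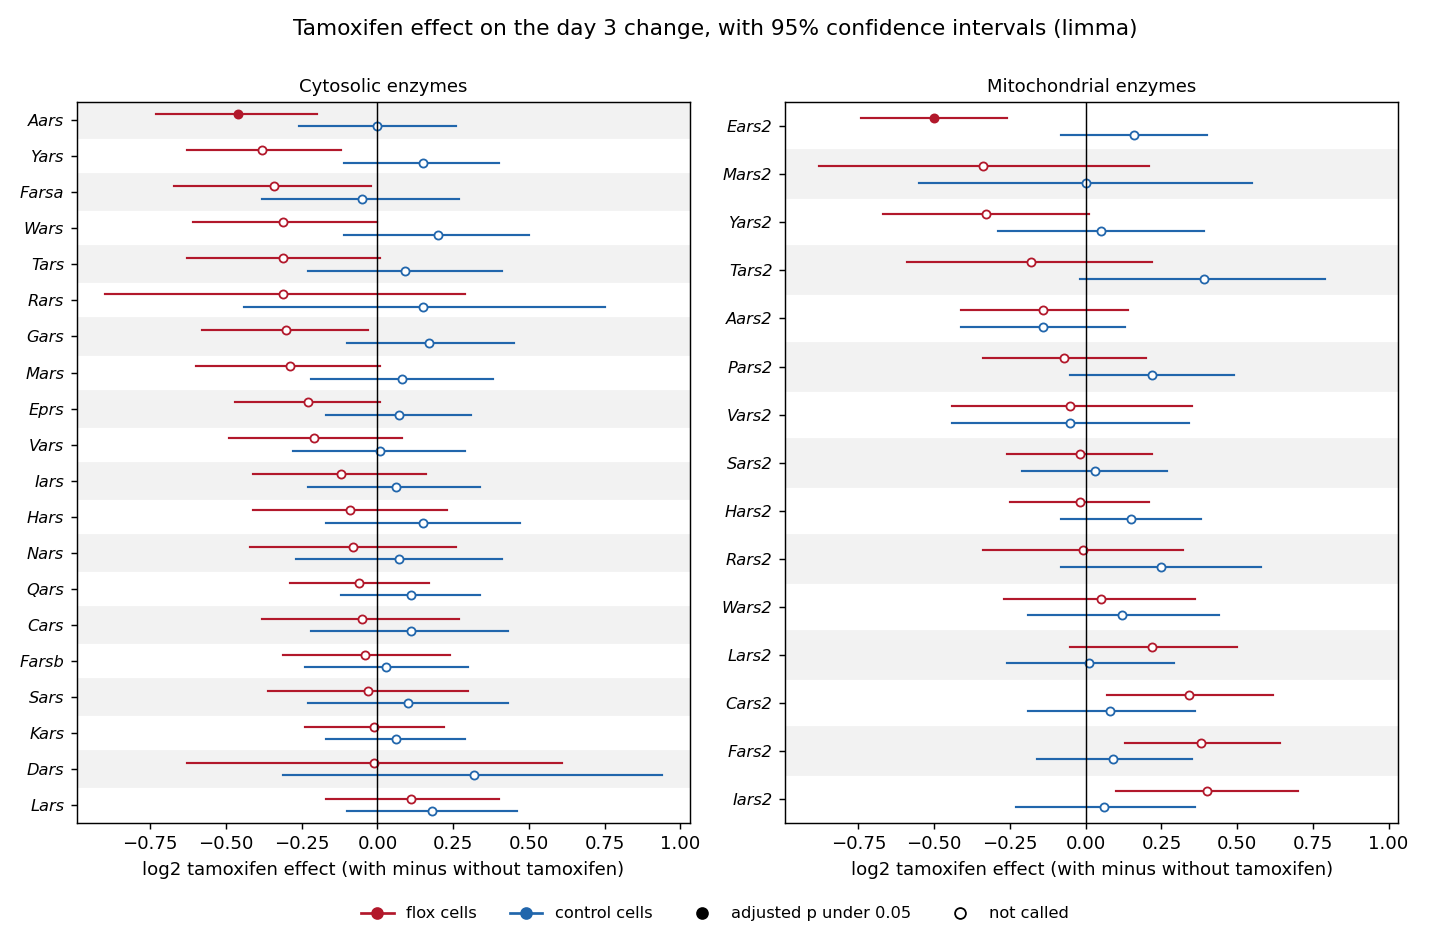
Tamoxifen effect on the log2 day 3 change of the 35 tested members in flox and control cells, with limma's 95% intervals; filled points passed an adjusted p of 0.05. Aars and Ears2 in flox cells are the filled points, and 19 of 20 cytosolic genes lie below 0 in flox cells.

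Probe position was set beside the tamoxifen effects. The upstream minus downstream median over 1888 genes was -0.04 for the tamoxifen effect in flox cells, 0.06 in control cells and -0.11 for their difference. The cytosolic medians in flox cells were -0.06 for the 5 junction probes and -0.23 for the other 15. At their other probes, Wars and Farsa had tamoxifen effects in flox cells of -0.13 and -0.30, against -0.31 and -0.34 at the probes used. Cars2 and Iars2 had 0.12 and 0.19, against 0.34 and 0.40, and Tars2 and Vars2 had -0.33 and -0.10, against -0.18 and -0.05. The difference between the genotypes at the other probe was -0.21 for Cars2 and -0.04 for Iars2. At the probe used it was 0.11 and 0.41 for Cars2 and 0.15 and 0.52 for Iars2 in the 2 experiments. For Wars, Farsa and Tars2 it was negative at both probes. The part of probe position in the tamoxifen effects was not tested.

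Related gene groups carried the same sign in flox cells with tamoxifen. The 30 ATF4 and amino acid response genes had a median tamoxifen effect of -0.27, and 2 were called, Xpot (-0.50 ± 0.11, adjusted p = 0.0404) and Psat1 (-0.74 ± 0.17, adjusted p = 0.0444). The 23 genes of MYC and ribosome biogenesis had a median of -0.40, and 3 were called lower, among them Polr1a, for the large subunit of RNA polymerase I, and Srm, for spermidine synthase. The 20 genes of G2 and mitosis had a median of -0.37 and 6 were lower. In the mitochondrial translation list, 3 of 27 were lower (Mtrf1l, Qrsl1 and Mrpl3), and in the transfer RNA list 3 were lower and 1 higher. Over all genes 4.16% were lower and 4.87% higher in this comparison. Of the macrophage markers, Fcgr1 was lower and Cd68 higher, and the stromal gene Dcn was higher, with 4 of 4 stromal markers above 0. Among these the collagen gene Col1a1 stood at -0.45 and 1.49 on the arrays of flox cells with tamoxifen and -0.54 and -0.62 on those without it, so its level was raised in experiment 2 alone. The B lineage marker Cd79b (-1.09 ± 0.11) and the megakaryocyte marker Gp9 (-0.81 ± 0.19) were lower, each 1 of 3 in its list. The neutrophil marker median was 0.03. The part of these genes in the synthetase values was not tested.

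Without tamoxifen the genotypes differed for 1 member. Gars was higher in flox cells than in control cells by 0.61 ± 0.11 (95% interval 0.34 to 0.89, 1.53-fold, limma adjusted p = 0.0492), against 2.87% of all genes called (1.44% higher and 1.43% lower). It differed by 0.76 and 0.46 in the 2 experiments, and the flox arrays, at -0.68 and -0.57, lie above the control arrays, at -1.44 and -1.03. Since these are ratios to each genotype's own day 0, a difference in day 0 RNA would enter them. The call was lost on leaving out any 1 of the 8 arrays (adjusted p between 0.075 and 0.34). It was also lost without the experiment term (0.272), with median centring (0.141), the deposited value table (0.107), the day 0 RNA as a random block (0.0567), the 5′-most probe (0.0538), the day 3 channel alone (0.0536) and the compared arrays alone (0.259). Leaving out any array lowered the count over all genes too. That count was 517 in the main fit, 2 without the experiment term and 5 with the deposited table. It was 709 with median centring and 1808 in the day 3 channel alone.

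Of the 34 other members tested, 29 were above 0. The cytosolic median was 0.30 with 19 of 20 genes above 0, the mitochondrial median was 0.14, and that of all genes was 0.00. By experiment the cytosolic medians were 0.29 and 0.24. Rars2 (0.58 ± 0.14, adjusted p = 0.0754) and Ears2 (0.37 ± 0.10, adjusted p = 0.0974) did not pass, nor did Dars (0.76 ± 0.26, adjusted p = 0.158), whose difference was 1.26 in experiment 1 and 0.25 in experiment 2. Of the 20 genes of G2 and mitosis, 15 were higher in flox cells, with a median of 0.86, and of 30 ATF4 and amino acid response genes 4 were higher and 1 lower. The 5′ minus 3′ median of this comparison was 0.08. Their part in the synthetase values was not tested.

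With tamoxifen the genotypes differed for 0 of 35 members, against 11.3% of all genes (5.84% lower and 5.42% higher). An unadjusted p under 0.05 in limma was found for 4 of 35 members and 5284 of 18001 genes, a smaller share among the members. The cytosolic median was 0.03 and the mitochondrial median 0.05, with 11 of 20 and 8 of 15 genes above 0. Aars came nearest, at -0.38 ± 0.11 (95% interval -0.64 to -0.12, adjusted p = 0.0708), and differed by -0.50 and -0.27 in the 2 experiments. In these same arrays Thoc5 was lower by 2.85 ± 0.10 as a fall on the log2 scale (adjusted p = 0.000744).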

How the data were processed

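RNA of day 3 and day 0 was hybridised to 8 Agilent dual-colour arrays. The authors scanned them with Agilent Feature Extraction 10.7.3.1, per the submitters' processing notes, and the deposited files give, for either dye, spot intensity and background intensity, with flags of 0 or 1. The deposited values by probe are log10 ratios of day 3 over day 0, which equal the deposited scanner log10 ratios turned for the dye swap within 5e-10; their median is 0 on every array.

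Mean signals were corrected with normexp (offset 50), log2 ratios were normalized by loess within arrays and turned to day 3 over day 0 (limma 3.58.1, R 4.3.3, statmod 1.5.0). Flagged outlier spots were left out. Of 39429 probes, 22407 were well above background on both arrays of a group in a channel. Each gene took its brightest probe; symbols came from the files, updated by RefSeq accession for 26412 probes. The number of arrays limits the precision, and 0 spots were saturated.

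The limma fit of 18003 genes had 4 group means plus an experiment effect, inseparable from dye direction and slide (3 residual and 3.46 prior degrees of freedom). Tests are two-sided, with Benjamini-Hochberg adjustment over all genes and calls at 0.05. Deviations of same-numbered arrays correlated at 0.31 to 0.73 between groups, and the labels name the shared experiment. No gene value of a member was missing on any array. All 36 members are named, with array values for those with the largest day 3 changes, the smallest p-values for tamoxifen, or a call; Wars and Farsa were singled out after their values were seen. Members and lists were chosen with earlier results of these data known. Lists are described by counts and medians, with no test. The model was tested on simulated data with independent noise on each array. The shared day 0 RNA and the experiment effect were not part of that simulation. Alternatives were no experiment term, median centring, the deposited value table, no or a strict filter, the day 0 RNA as a random block, the mean of all probes, the day 3 channel alone, a fit to only the arrays compared, and each array left out; the 3′-most or 5′-most probe, and probe pairs bright on all arrays, were added after seeing the data.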

Additional observations from a re-analysis of the deposited data

Results flagged for a closer look

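The day 3 change of Gars differed between genotypes without tamoxifen, by 0.61 on the log2 scale, flox minus control. It is listed because the fit's own test of a difference between genotypes passed (limma adjusted p = 0.0492). The call was lost on leaving out any 1 array (adjusted p 0.075 to 0.34), without the experiment term (0.272) and with median centring (0.141). Beside it, the 5′ minus 3′ probe median over all genes in the same comparison was 0.08, and the part of probe position in the value was not tested.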

How the results depend on the processing

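In limma with Benjamini-Hochberg adjustment, the calls for tamoxifen and genotype lay near the threshold. Without the replicate block (the term for the experiment), 0 members were called for tamoxifen in flox cells and 0 for genotype without tamoxifen (Gars 0.61, adjusted p = 0.272). Of all genes this fit called 470 and 2, against 1624 and 517 in the main fit. Tamoxifen in flox cells called 0 members with median centring, 1 with the deposited value table, 1 with the 5′-most probe, 4 with the day 0 RNA as a random block, 4 in the day 3 channel alone and 9 in a fit of the compared arrays alone. Over all genes these settings called 1292, 1152, 1432, 2905 and 2419 in that order, against 1624 in the main fit. The all-gene count of the last fit was not taken. The difference of the tamoxifen effect between genotypes called 1 member (Ears2) with the day 0 random block, and 824 of all genes (205 in the main fit). Genotype with tamoxifen called 1 member (Cars2) in the day 3 channel alone, and 3142 of all genes (2026 in the main fit). Genotype without tamoxifen called 0 with the deposited table, the day 0 random block, the 5′-most probe or the compared arrays alone, and 4 in the day 3 channel alone (Dars, Hars, Ears2 and Rars2, not Gars). Over all genes the deposited table called 5 for this comparison, the day 0 random block 478 and the 5′-most probe 419. The day 3 channel alone called 1808, against 517 in the main fit.

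The cytosolic minus mitochondrial median at day 3 stayed below 0 in all these settings. In flox cells with tamoxifen it was -0.44 with no filter, -0.44 with the mean of all probes, -0.28 with the 3′-most and -0.47 with the 5′-most probe. In control cells with tamoxifen it was -0.21 with median centring, -0.25 with the deposited table, -0.42 with the mean of all probes, -0.24 with the 3′-most and -0.44 with the 5′-most probe. In control cells without tamoxifen it was -0.21 with the deposited table, -0.32 with no filter and -0.36 with the 5′-most probe. It was -0.06 for tamoxifen in control cells with the 5′-most probe, and for genotype without tamoxifen 0.08 with that probe and 0.05 in the day 3 channel alone.

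Counting sign changes with a call in either setting, directions reversed only where other probes of a gene were used. The reason was not tested. In flox cells with tamoxifen the mean of all probes gave 0.01 for Farsa, 0.04 for Wars, 0.15 for Cars2 and 0.46 for Pars2, and the 5′-most probe gave 0.51 for Farsa, 0.94 for Wars, 0.61 for Cars2, 0.98 for Pars2 and 0.19 for Tars2. In flox cells without tamoxifen the mean gave 0.34 for Farsa, 0.26 for Wars, 0.32 for Iars2 and 0.01 for Tars2, and the 5′-most probe gave 0.81 for Farsa, 1.07 for Wars, 0.49 for Cars2, 0.98 for Iars2 and 0.52 for Tars2. In control cells with tamoxifen the mean gave 0.21 for Farsa, 0.07 for Wars and 0.38 for Iars2, and the 5′-most probe gave 0.71 for Farsa, 0.79 for Wars, 0.58 for Cars2, 0.92 for Iars2 and 0.39 for Tars2. In control cells without tamoxifen the 5′-most probe gave 0.63 for Farsa, 0.52 for Wars, 0.25 for Cars2, 0.69 for Iars2 and 0.46 for Pars2. Wars2 with the 3′-most probe gave -0.33 and -0.40 in flox cells (tamoxifen, then none) and -0.30 and -0.05 in control cells.

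Leaving out each array in turn gave 16 to 28 called members at day 3 in flox cells with tamoxifen, 16 to 24 without it, 16 to 27 in control cells with tamoxifen and 24 to 27 without it. It gave 0 to 2 for tamoxifen in flox cells and 0 for every other comparison. The cytosolic minus mitochondrial median ran from -0.53 to -0.34, from -0.34 to -0.29, from -0.36 to -0.26 and from -0.37 to -0.26 in those 4 groups, from -0.28 to -0.08 for tamoxifen in flox cells, from -0.10 to 0.04 in control cells, from -0.31 to -0.04 for their difference, from -0.08 to 0.05 for genotype with tamoxifen and from 0.12 to 0.18 without it. Where this leaves 1 array in a group, that array is assumed to vary like the others. The day 3 counts over all genes fell as well on leaving out either array of the group. For tamoxifen in flox cells the all-gene count fell on leaving out any flox array or any control array with tamoxifen. For genotype without tamoxifen it fell on leaving out any array. The 5′ probe of Pars2 was not well above background at day 0 on any array, and the 3′ probe of Wars2 was so at day 3 on 3 of 8, so their reversed values are not exact. Dim signal limits Nars2 most, and Yars and Wars2 were the dimmest members tested.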
